A study of Mus musculus with 21 samples.

Results

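The solute carrier genes encode membrane proteins that move nutrients, ions, metals and metabolites across the cell surface and across the membranes of organelles. The members described here were 115 of the 309 genes with a solute carrier symbol of the form Slc, number, a, number, out of 18194 genes that had a probe set assigned to them alone. A gene was a member if its highest group mean reached a signal of 500, the value to which every array had been scaled, and 5 genes at that level were left out by name. The other 189 genes of this naming pattern stayed under the level. The members were thus chosen by the group means themselves, so how many of them are expressed and in which group each is highest is a description and no test. Just inside the level were Slc39a13 (505), Slc25a38 (509.7) and Slc5a3 (549.9), and just outside were Slc25a32 (482), Slc11a2 (460.2) and Slc7a5 (459).

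Gene expression was measured on Affymetrix arrays, as a linear signal per probe set, in 21 samples of sorted cells from female C57BL/6 mice aged 7 to 8 weeks, with 3 samples called biological replicates in each of 7 groups. Peritonitis was started with an intraperitoneal dose of 20000000 particles of zymosan, a yeast cell wall preparation. The groups of untreated mice were Ly-6B+ Ly-6G- monocytes of the bone marrow and F4/80 high CD11b high resident macrophages of the peritoneal cavity. The zymosan groups, all from the cavity, were Ly-6B+ Ly-6G- monocytes at 4 h, Ly-6B+ or low, Ly-6G- monocytes and macrophages at 18 h, F4/80+ CD11b+ macrophages at 72 h, and at 168 h F4/80 medium to high Ly-6B+ and F4/80 high Ly-6B- macrophages. The surface markers of the sort changed with time, so the gate and the time after zymosan cannot be told apart. Whether a sample was 1 mouse or a pool is not given in the sources used here, and if samples were not from separate mice, p-values measure only the spread between these samples.

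Solute carriers are grouped into numbered families by sequence. They either let a solute run down its own gradient or couple its movement to that of sodium, protons or another solute, and some work only with a partner chain. In macrophages they are known for supplying amino acids and glucose, for exporting lactate, for lysosomal and mitochondrial exchange, and for the handling of iron, zinc, copper and manganese. The members came from 40 families and were sorted by family into 8 classes of substrate or site. The classes were mitochondrial carriers (23 members), amino acids and peptides (20), metals (18), nucleosides, vitamins, haem, choline, lipids and organic ions (17), carboxylates, anions and phosphate (10), ions of pH and volume control (9), sugars and sugar phosphates (9), and nucleotide sugars and acetyl-CoA of the secretory pathway (6). The other 3 members, Slc49a4, Slc66a1 and Slc66a2, belong to families outside these lists.

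Most members were present through the whole series, and a smaller number were strongly tied to a stage. A group mean of 500 was reached in all 7 groups by 63 members, in 2 to 6 groups by 38, and in 1 group alone by 14. The highest group mean was between 1.16 and 106 times the lowest, with a median ratio of 2.40 against 2.07 over all genes with a group mean of 500 or more. The ratio was 2 or less for 41 members and 5 or more for 19. Slc25a3, the mitochondrial phosphate carrier, was the flattest member, with signals between 19542 and 27133 in the 21 samples. Slc39a14, an importer of zinc, iron and manganese, had the widest range. All 115 members also passed the filter on low signals.

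The highest group mean fell in the 4 h monocytes for 34 members, in the 18 h cells for 23, in the resident macrophages for 19 and in the bone marrow monocytes for 17. It fell in the 72 h macrophages for 9, in the Ly-6B- population of 168 h for 8 and in its Ly-6B+ counterpart for 5. The lowest group mean fell at 4 h for 44 members, in the bone marrow for 33 and at 18 h for 2. The 4 h monocytes thus held both the most peaks and the most troughs, and for all genes with a group mean of 500 or more the shares at 4 h were 23.1% and 37.1%, against 29.6% and 38.3% of the members. An F test over the 7 groups (limma, adjusted over 12169 genes) was passed by 104 members, 90.4%, against 69.8% of all genes tested and 83.8% of the 7516 tested genes at the same level. The 11 members that did not pass were Slc25a3, Slc25a11, Slc30a5, Slc30a6, Slc36a4, Slc38a1, Slc38a7, Slc39a11, Slc41a3, Slc4a2 and Slc66a2. A p above the threshold does not show that these were equal in all groups.

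**Figure D1:**
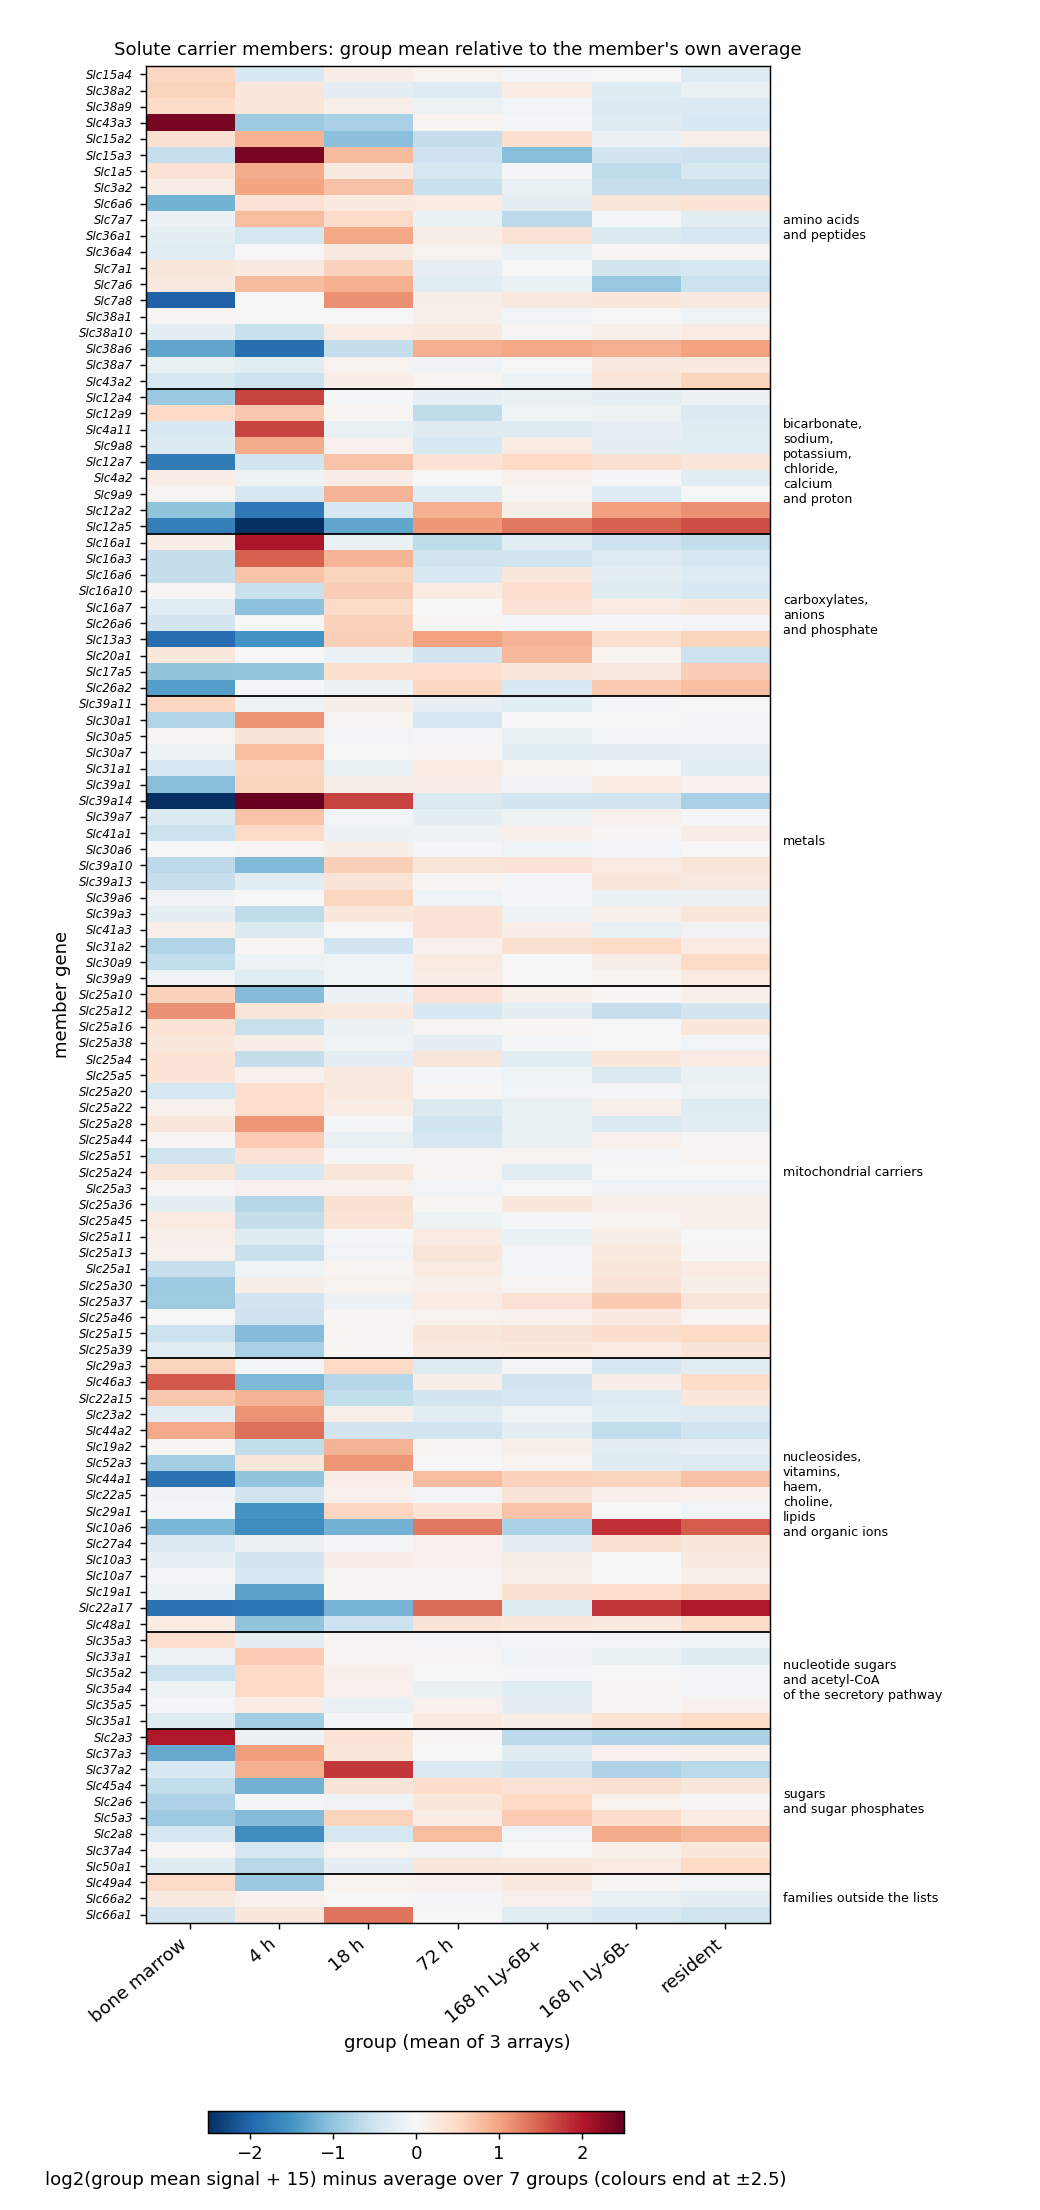
Heat map of the 115 members (rows, by class and by the group of the highest mean) in 7 groups (columns, mean of 3 arrays); colour is log2(group mean signal + 15) minus the member's average over the groups, ending at 2.5 in either direction. Slc39a14, Slc15a3 and Slc16a1 stand out in the 4 h column, Slc43a3 and Slc2a3 in the bone marrow column, and Slc22a17, Slc10a6 and Slc12a5 in the columns of 72 h and of resident macrophages.

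Genes that mark the sorted cells followed the labels. Ccr2, a receptor of monocytes, had signals of 12818, 13536 and 9680 in the bone marrow and 317, 98.4 and 130 in resident macrophages. Timd4, a receptor of resident macrophages, had 2.05 to 5.22 in the bone marrow and 18075 to 19135 in resident macrophages. Bone marrow sample 3 stood apart in genes of neutrophils and their precursors, with S100a9 at 39146 against 8538 and 5796, sample 2 of 4 h in Alox15 (2200 against 131 and 156), and sample 2 of 72 h in Ms4a1 of B cells (5384 against 267 and 289) and Cpa3 of mast cells (3408 against 140 and 131). The results were therefore also taken without these 3 samples. The summed signal of 9 measured neutrophil genes was 62380 to 200600 in the bone marrow and 2703 to 10290 over all other groups. That of 7 cell cycle genes was 64280 to 82150 in the bone marrow and 809 to 1109 at 4 h. Hba-a1 and Alas2, defining genes of red cell precursors, were at or under 94.7 in every sample. Ermap, Car1, Klf1 and Rhag of the same list had their highest group means in the bone marrow (165, 110, 136 and 47.4). Their next highest group means were 54.4, 49.3, 93.1 and 25.5. Epor was highest in resident macrophages (174) and Tfrc at 18 h (2101). All 8 mesothelial or fibroblast genes had group means under the median of the table. The Gapdh 3'/5' ratio, a sign of RNA quality, was 2.17 to 2.84 in the bone marrow, 2.47 to 2.7 at 4 h and 1.64 to 2.12 at 18 h. In sorted populations a change in the kinds of cells taken and a change of RNA per cell cannot be told apart.

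The first comparison set the 4 h monocytes of the cavity against those of the bone marrow, to show what differs once monocytes have entered the inflamed site. A gene was called with an adjusted p under 0.05 and a log2 fold change of at least 1, on log2(signal + 15), a scale that understates the change of dim genes. Of the members, 22 were called higher (19.1%) and 9 lower (7.83%), against 7.5% and 14.5% of all genes tested and 10% and 16.1% of genes at the same level. Higher members carried metals, lactate, potassium with chloride, peptides and sugar phosphates, and lower ones nucleobases or nucleosides, folate, haem, glucose and dicarboxylates. The arrays of the groups did not overlap for 87 members, 75.7%, against 54.7% of all genes tested and 66.7% of genes at the same level. The median difference over members was -0.05, against -0.14 over all genes tested. On this scale, set by the authors, the log2 median signal per array differed by -0.36 between 4 h and the bone marrow. When the array medians were made equal, the split was 34 higher and 6 lower, and with quantile normalization it was 23 and 6. Shares of all genes called under these scalings were not set beside these counts.

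Of 18 metal carriers, 5 were called higher and none lower at 4 h. This and the class counts that follow stand beside 7.5% higher and 14.5% lower of all genes tested. Slc39a14 had signals of 75.2, 68.8 and 124 in the bone marrow and 9713, 8902 and 9831 at 4 h. All 4 h samples thus lay far above all bone marrow samples, a log2 difference of 6.54 ± 0.20 (SE, n = 3 and 3, adjusted p 2.21e-15). A second probe set of Slc39a14 also rose, by 2.11 (adjusted p 1.71e-05), and the mean of its probe sets gave 3.69. The probe sets so differed in size but not in direction. Slc30a1, which exports zinc across the cell surface, went from 604, 884 and 518 to 2697, 2360 and 2447, a rise of 1.91 ± 0.23. Its second probe set rose by 1.17. Slc39a1, a zinc importer, rose by 1.63, Slc39a7, which releases zinc from the endoplasmic reticulum, by 1.07, and Slc41a1, a magnesium carrier, by 1.04. Importers and an exporter of zinc were thus higher in the same samples. Slc31a1, the copper importer, and Slc30a7, which moves zinc into the Golgi, had differences of 0.91 and 0.90 that passed the adjusted p (9.91e-05 and 6.61e-06) but not the fold.

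Of 20 amino acid and peptide carriers, 3 were higher and 1 lower. Slc15a3, a lysosomal carrier of histidine and small peptides, had signals of 2180, 2319 and 1712 in the bone marrow and 16093, 15432 and 16693 at 4 h. The groups were far apart, with a difference of 2.96 ± 0.15 (adjusted p 3.13e-12). Its relative Slc15a4 had lower signals at 4 h, with a difference of -0.89 ± 0.16 that passed the adjusted p (9.51e-05) but not the fold. Slc7a8, a light chain for neutral amino acids that works with Slc3a2, rose by 2.10, from 105, 144 and 52.5 to 440, 567 and 368. Slc3a2, the heavy chain, had a difference of 0.82 ± 0.14. Slc6a6, the taurine carrier, rose by 1.53, and its second probe set by 1.45. Slc43a3, placed here by its family but known to carry purine nucleobases, fell by 3.26 on the log2 scale. Its signals were 996, 867 and 1370 in the bone marrow and 90.3, 115 and 87.5 at 4 h, the lowest of which lie close to the median of the table (80.6).

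Of 10 carriers of carboxylates, anions and phosphate, 4 were higher and none lower. Slc16a1, a lactate and pyruvate carrier, had signals of 894, 1016 and 1617 in the bone marrow and 4122, 4231 and 4375 at 4 h. The 4 h samples lay close together and above all others in the series, with a difference of 1.89 ± 0.22 (adjusted p 5.86e-07). With the mean of its probe sets the difference was 0.74, under the fold. Slc16a3, the lactate carrier linked to high glycolysis, rose by 2.02 ± 0.39, from 169, 208 and 119 to 638, 1107 and 487. Slc26a2, a sulphate carrier, rose by 1.35 and Slc16a6 by 1.3. Of 9 ion carriers, 4 were higher and none lower. Slc12a4, which lets potassium and chloride out of the cell, went from 288, 360 and 211 to 1943, 1827 and 1731, a rise of 2.64 ± 0.21. Its relative Slc12a7 rose by 1.27. Slc4a11, which moves protons or hydroxide, rose by 2.07 ± 0.21, from 208, 223 and 165 to 895, 736 and 1009. Slc9a8, a sodium and proton exchanger, rose by 1.29.

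For Slc16a1, the RefSeq promoter table (GRCm38.p6) gives the stretch before its start, chr3:104638414-104638663 on the plus strand, shown because it can be read for short motifs of metal, hypoxia and inflammatory response. The motifs searched on both strands were the metal response core TGCGCNC or TGCACNC, C/EBP TTGCNNAA, AP-1 TGANTCA, NF-kB GGGNNTTCC, the GATA core (letters AGATAA) and the hypoxia core ACGTG, and matches are in capitals.
Slc16a1: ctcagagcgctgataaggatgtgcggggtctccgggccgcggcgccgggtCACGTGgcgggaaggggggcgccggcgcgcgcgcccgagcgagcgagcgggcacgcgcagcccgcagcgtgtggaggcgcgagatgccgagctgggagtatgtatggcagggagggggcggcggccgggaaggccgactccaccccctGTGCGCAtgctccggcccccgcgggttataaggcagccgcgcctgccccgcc
The capitals mark the hypoxia core on both strands, where the letters CACGTG hold it both ways, and a metal response core read on the other strand. Over the 250 bases before the start of all 32851 promoters in the table, the hypoxia core was found in 16.6% and the metal core in 21.4%. A match is a run of letters and was not tested as a site. A promoter entry was found for 92 of the 115 members.

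Of 9 sugar carriers, 2 were higher and 2 lower at 4 h. Slc37a3 and Slc37a2 belong to the family that exchanges sugar phosphates for phosphate. Slc37a3 rose by 2.32 ± 0.16, from 150, 182 and 115 to 771, 790 and 823, and its second probe set by 2.18. Slc37a2 rose by 1.29 ± 0.26, from 130, 133 and 82.9 to 294, 305 and 293. Slc2a3, a glucose carrier of high affinity, was lower, with a difference of -1.77 ± 0.48 (adjusted p 0.00448). Its bone marrow signals were 790, 589 and 2928, and those at 4 h were 331, 296 and 319. The high value was in the sample with the most S100a9, and the part of other cells in this result was not tested. Without that sample the difference for Slc2a3 was -1.08 (adjusted p 0.0457), and without the 3 samples that stood apart -1.04. Slc2a8, an intracellular glucose carrier, had a difference of -1.07.

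Among 17 carriers of nucleosides, vitamins, haem, choline, lipids and organic ions, 2 were higher and 4 lower. Slc23a2, which takes up ascorbate, rose by 1.41 ± 0.14, though its second probe set gave 0.31 (adjusted p 0.611). Slc52a3, a riboflavin carrier, rose by 1.13. Slc46a3, a lysosomal carrier, fell by 2.66, from 935, 928 and 738 to 100, 131 and 143, with no overlap. Slc29a1, the main nucleoside carrier of the cell surface, fell by 1.48, from 454, 498 and 474 to 129, 181 and 179. Slc48a1, which carries haem out of the lysosome, fell by 1.18 and Slc19a1, the folate carrier, fell by 1.18. Of the 23 mitochondrial carriers, 1 was higher and 1 lower. Slc25a10, the dicarboxylate carrier, fell by 1.65, from 941, 781 and 703 to 229, 278 and 231, and its second probe set fell by 2.41. Slc25a30 rose by 1.05. Of the remaining members, Slc35a2, which brings UDP-galactose into the Golgi, rose by 1.04 and Slc49a4 fell by 1.48.

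The rule itself favoured a difference for members that reached 500 in 1 group alone. These were Slc16a3, Slc37a3, Slc4a11 and Slc9a8 at 4 h and Slc43a3, Slc46a3 and Slc2a3 in the bone marrow. Slc12a4 and Slc23a2 reached it at 4 h but not in the bone marrow, so their rise was favoured too. Bone marrow sample 3 decided the calls of Slc19a1 and Slc41a1, with differences of -0.92 and 0.90 without it. Single samples also decided those of Slc2a8 (-0.72 without bone marrow sample 1, -0.97 and -0.95 without 4 h samples 1 and 2), Slc35a2 (0.93 and 0.99 without bone marrow samples 1 and 3, 0.87 without 4 h sample 3) and Slc52a3 (0.98 without 4 h sample 3). When all probe sets of a gene were averaged, Slc9a8, Slc19a1, Slc23a2, Slc25a30, Slc26a2, Slc35a2, Slc41a1, Slc48a1 and Slc49a4 also fell under the fold or the adjusted p. The calls of Slc19a1, Slc2a8 and Slc48a1 ended under both other scalings, and that of Slc39a7 with quantile normalization (0.98). The drop of the cell cycle and neutrophil sums given above lay between the same groups, and its part in these results was not tested. Without the 3 samples that stood apart, 21 members were higher and 10 lower.

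**Figure D2:**
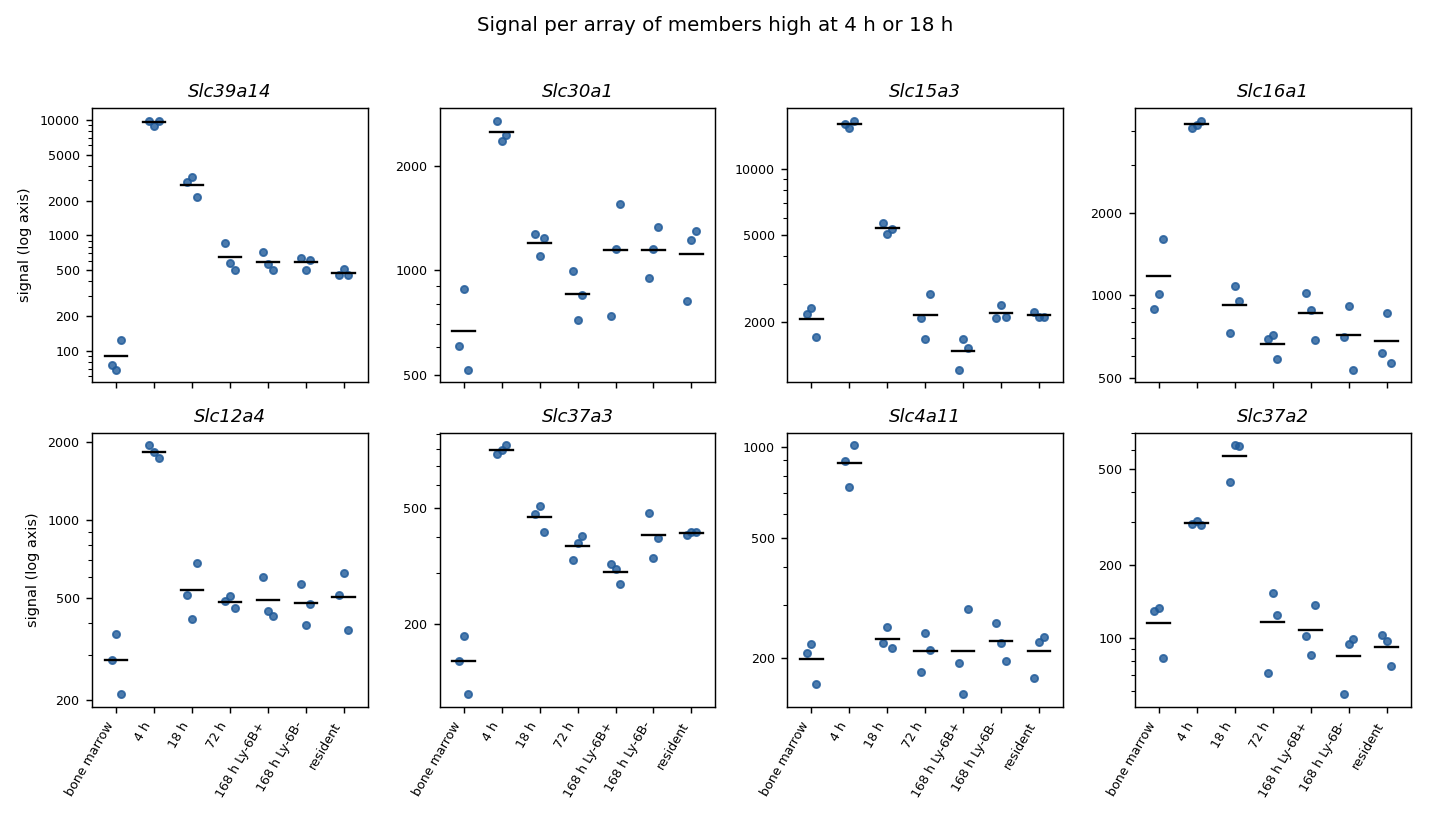
Signal per array (points, log axis) and mean of 3 arrays (line) in the 7 groups, for 8 members with high signals at 4 h or 18 h. The 4 h samples are above all samples of the other groups for Slc39a14, Slc30a1, Slc15a3, Slc16a1, Slc12a4, Slc37a3 and Slc4a11, and the 18 h samples are highest for Slc37a2.

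The cells of 18 h were compared with the monocytes of 4 h. They share the 4 h group with the comparison above, so a member that is high or low at 4 h alone moves the other way here. Of the members, 23 were called higher (20%) and 10 lower (8.70%), against 10.9% and 4.56% of all genes tested and 12.7% and 5.92% of genes at the same level. The arrays did not overlap for 85 members, 73.9%, against 50.1% of all genes tested and 61.1% of genes at the same level. The median difference over members was 0.29, against 0.14 over all genes tested. This split depended on the scale, and the log2 median signal per array was higher by 0.29 at 18 h. When the array medians were made equal, 12 members were higher and 17 lower, and with quantile normalization 13 and 13. These counts lack the shares of all genes called under the same scalings, so they describe the scale and no trait of the members.

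The members that fell at 18 h included those highest at 4 h. Slc16a1 fell by 2.20 ± 0.22, to 725, 1084 and 958, signals that overlap those of the bone marrow. Slc39a14 fell by 1.80 ± 0.20, to 2905, 3168 and 2140, still far above the bone marrow on the probe set used. Its second probe set fell by 1.25, after a rise of 2.11 at 4 h. Slc15a3 fell by 1.58, to 5678, 5075 and 5360. Slc12a4 fell by 1.77, to 514, 414 and 683, and Slc4a11 fell by 1.85, to 223, 253 and 216. Slc30a1 fell by 1.05 and its second probe set fell by 1.07. The 4 h peak was thus lost in full by some carriers of this group and in part by others. Slc44a2, a choline transporter-like protein, fell by 1.87 ± 0.12, from 15776, 15745 and 18261 to 5434, 3710 and 4526. Its second probe set fell by 2.16 (adjusted p 1.23e-09). Slc15a2, a peptide carrier, fell by 1.88, from 1148, 671 and 796 to 202, 235 and 224, but its second probe set gave -0.11 (adjusted p 0.771) and the mean of its probe sets -0.61. Slc22a15 fell by 1.51 and Slc25a28, an iron importer of mitochondria, fell by 1.16.

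Higher at 18 h were carriers of dicarboxylates, nucleosides, zinc and vitamins. Slc13a3, a sodium-coupled dicarboxylate carrier, had signals of 124, 85.3 and 51.3 at 4 h and 420, 398 and 434 at 18 h, a rise of 2.15 ± 0.20 (adjusted p 6.16e-08). Its second probe set rose by 1.72. Slc29a1 went from 129, 181 and 179 to 712, 700 and 704, a rise of 2.03 ± 0.16. The 18 h signals of Slc29a1 were also above the 3 of the bone marrow. Slc39a10, a zinc importer, rose by 1.69 ± 0.14, from 1122, 1037 and 1040 to 3497, 3545 and 3396, and its second probe set by 1.28. So among the metal carriers the importer Slc39a10 rose while Slc39a14 and Slc30a1 fell, 1 higher and 2 lower of 18. Slc5a3, the myo-inositol carrier, rose by 1.64 on the probe set used, and its second probe set gave -0.04 (adjusted p 0.957). Slc16a7, a pyruvate and lactate carrier, rose by 1.5, from 425, 456 and 394 to 1295, 1268 and 1136. Slc19a2, a thiamine carrier, rose by 1.43 and its second probe set by 1.90 (adjusted p 5.24e-07). Slc36a1, which carries amino acids with protons out of lysosomes, rose by 1.42 and Slc17a5, which carries sialic acid out of lysosomes, by 1.36. Slc45a4 rose by 1.49 on the probe set used, but its second probe set gave 0.63 (adjusted p 0.272). Slc19a1 rose by 1.37 on the probe set used, but its second probe set gave 0.44 (adjusted p 0.103), and quantile normalization also ended its call (0.98).

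Slc4a11 reached 500 only at 4 h, so the rule favoured its fall. Slc29a1 and Slc17a5 reached it at 18 h but not at 4 h or in the bone marrow, so their rise was favoured too. By class, the 18 h cells had 4 higher and 2 lower of the 9 ion carriers, 4 and 1 of the 10 carboxylate, anion and phosphate carriers, 3 and 2 of the 20 amino acid and peptide carriers, and 3 and none of the 9 sugar carriers. They had 4 higher and 2 lower of the 17 nucleoside, vitamin, haem, choline and lipid carriers, 2 and 1 of the 23 mitochondrial carriers, and none of the 6 nucleotide sugar carriers. Of all genes tested, 10.9% were higher and 4.56% lower, and these small class counts are a description. Slc9a9, an exchanger of endosomes, rose by 1.24 ± 0.24, from 503, 550 and 415 to 1242, 1127 and 1150. Single samples decided the calls of Slc12a7 (0.99 without 4 h sample 3), Slc16a10 (0.99 without 18 h sample 1), Slc30a1 (-0.98 and -0.99 without 18 h sample 2 and 4 h sample 1), Slc44a1 (0.95 and 1.00 without 18 h sample 1 and 4 h sample 3), Slc49a4 (0.96 and 0.73 without the same samples), Slc66a1 (0.98 and 0.97 without 18 h samples 1 and 3) and Slc7a8 (1.00 without 4 h sample 3). With a common median 11 calls ended, those of Slc12a5, Slc12a7, Slc16a10, Slc25a15, Slc25a36, Slc2a8, Slc44a1, Slc49a4, Slc66a1, Slc7a8 and Slc9a9. With quantile normalization those of Slc16a10, Slc19a1, Slc25a15, Slc2a8, Slc38a6, Slc44a1, Slc49a4, Slc66a1, Slc7a8 and Slc9a9 ended. With the mean of the probe sets 14 members were higher, and the calls of Slc12a2 (0.53), Slc12a5 (0.68), Slc15a2 (-0.61), Slc16a10 (0.49), Slc19a1 (0.62), Slc25a15 (0.12), Slc44a1 (0.58), Slc45a4 (0.98), Slc49a4 (0.32), Slc5a3 (0.40) and Slc9a9 (0.64) ended.

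Markers of other cells also differed between these groups. The summed signal of 12 resident macrophage markers ran from 13880 to 22450 at 4 h and from 54150 to 61970 at 18 h. That of 6 monocyte markers ran from 118800 to 123100 and from 73830 to 75290. Those of 9 neutrophil markers ran from 9710 to 10290 and from 2703 to 4192, and those of 5 B cell markers from 1303 to 1980 and from 2326 to 3936. The 6 platelet markers summed to between 2180 and 3591 at 4 h and between 9700 and 12310 at 18 h. This rise lay in Pf4, with group means of 2100 and 10170, a gene that had 34141 in resident macrophages. Ppbp (217 and 148), Itga2b (146 and 140), Gp9 (30.4 and 7.16) and Gp1bb (78.6 and 77.3) did not rise, and Treml1 had 143 and 175. The Gapdh ratio differed as well. The part of these in the 18 h results was not tested.

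**Figure D3:**
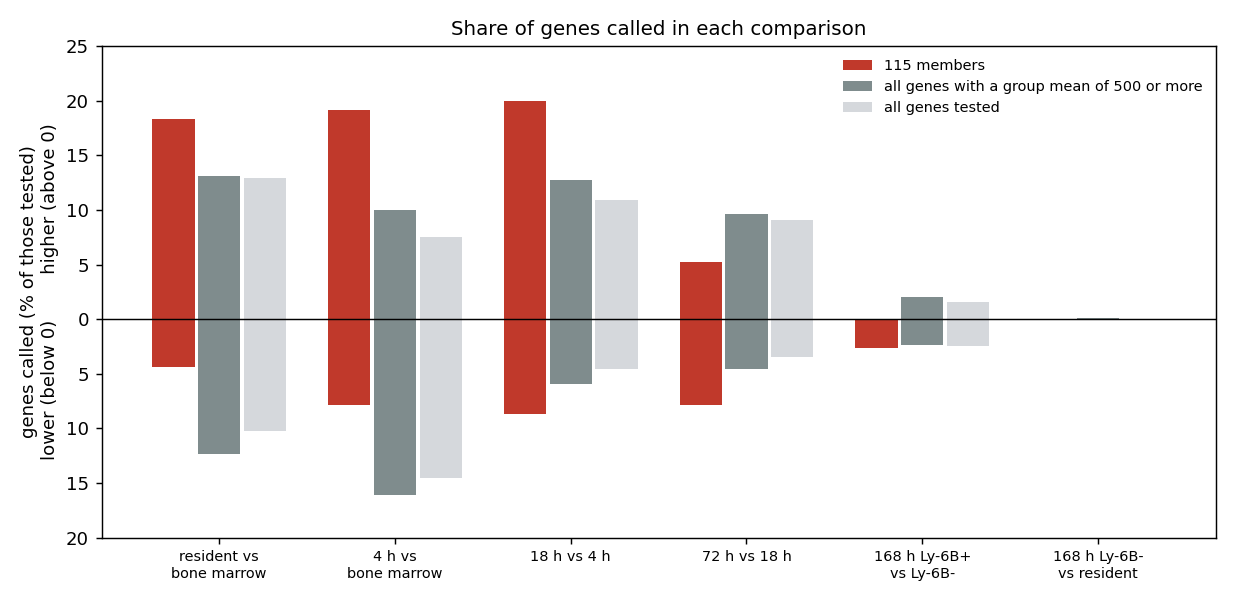
Share of genes called higher (above 0) and lower (below 0) in the 6 comparisons, in percent of those tested, for the 115 members, for all genes with a group mean of 500 or more and for all genes tested. At 4 h against the bone marrow 19.1% of members and 7.5% of all genes are higher, and in the last comparison no member is called.

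Macrophages at 72 h were compared with the cells of 18 h, which shows what differs as inflammation resolves. Of the members, 6 were higher (5.22%) and 9 lower (7.83%), against 9.03% and 3.46% of all genes tested and 9.66% and 4.59% of genes at the same level. The arrays did not overlap for 62 members, 53.9%, against 41% of all genes tested and 48.7% of genes at the same level. The median difference was -0.13 over members and 0.03 over all genes tested. The higher members were the lipocalin 2 receptor Slc22a17 and carriers of sulphated steroids, chloride, amino acids and glucose that stayed high in resident macrophages, and the lower ones included those raised at 4 h or 18 h.

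Slc22a17, a receptor of the iron-binding protein lipocalin 2, had signals of 188, 204 and 256 at 18 h and 1120, 1130 and 1782 at 72 h, a rise of 2.53 ± 0.25 (adjusted p 1.77e-07). Slc10a6, a carrier of sulphated steroids, went from 69.4, 76.4 and 91.2 to 292, 617 and 641, a rise of 2.43 ± 0.32, its earlier signals lying close to the median of the table. Slc12a5, a potassium and chloride carrier best known from neurons, went from 149, 136 and 168 to 954, 641 and 933, a rise of 2.35 ± 0.22. None of the 18 h samples reached the lowest 72 h sample for these 3 members. Slc12a2, which brings in sodium, potassium and chloride, rose by 1.28 and its second probe set by 1.67. Slc38a6 rose by 1.51 ± 0.14, from 751, 728 and 885 to 2092, 2086 and 2629, although its second probe set gave 0.90 (adjusted p 0.131). Slc2a8 rose by 1.21, from 195, 245 and 195 to 470, 518 and 533. Over the same interval the summed signal of 12 genes of resident macrophages rose from between 54150 and 61970 to between 221600 and 272200, and that of 6 monocyte genes fell from between 73830 and 75290 to between 10510 and 19830. The part of this shift in the results was not tested.

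The stretches before the starts of the 3 members with the largest rise are shown because these members rose together, chr14:54913133-54913382 on the minus strand for Slc22a17, chr5:103629404-103629653 on the minus strand for Slc10a6 and chr2:164960596-164960845 on the plus strand for Slc12a5 (RefSeq, GRCm38.p6, 5′ to 3′).
Slc22a17: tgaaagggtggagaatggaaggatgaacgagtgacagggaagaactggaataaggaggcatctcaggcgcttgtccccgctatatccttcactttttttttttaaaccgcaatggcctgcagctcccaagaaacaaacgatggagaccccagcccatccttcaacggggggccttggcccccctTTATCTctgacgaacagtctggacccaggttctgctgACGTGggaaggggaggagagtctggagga
Slc10a6: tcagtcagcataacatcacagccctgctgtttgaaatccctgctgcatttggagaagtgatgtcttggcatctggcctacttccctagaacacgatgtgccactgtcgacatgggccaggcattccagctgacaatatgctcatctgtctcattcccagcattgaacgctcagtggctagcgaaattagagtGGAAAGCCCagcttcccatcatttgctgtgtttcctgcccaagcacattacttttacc
Slc12a5: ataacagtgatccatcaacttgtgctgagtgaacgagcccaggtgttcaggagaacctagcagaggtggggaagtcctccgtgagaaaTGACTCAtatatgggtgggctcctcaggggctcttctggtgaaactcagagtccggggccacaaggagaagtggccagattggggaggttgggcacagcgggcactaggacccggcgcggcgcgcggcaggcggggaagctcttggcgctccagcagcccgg
The capitals mark a GATA match read on the other strand and a hypoxia core for Slc22a17, an NF-kB match read on the other strand for Slc10a6 and an AP-1 match for Slc12a5. No motif of the search was in all 3 windows. The same motifs were found in 9.99% (GATA), 16.6% (hypoxia core), 4.98% (NF-kB) and 6.75% (AP-1) of all promoters, and C/EBP, of which these windows held no match, in 9.56%.

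Lower at 72 h were Slc37a2, Slc39a14, Slc66a1 and Slc15a3. Slc37a2 fell by 2.17 ± 0.26, from 442, 625 and 622 to 71.8, 153 and 124, which overlaps the bone marrow range. Slc39a14 fell by 2.08 ± 0.20, to 850, 581 and 502, and its second probe set fell by 1.14. On the probe set used, the signal of Slc39a14 at 72 h was still above the 3 bone marrow samples. The second probe set did not show this. It rose by 2.11 at 4 h and fell by 1.25 at 18 h and 1.14 at 72 h, falls that together exceed the rise. Slc15a3 fell by 1.34, to 2078, 1673 and 2700. Slc66a1, a lysosomal carrier of cationic amino acids, fell by 1.34, from 1705, 1182 and 1739 to 675, 628 and 486. Slc3a2, the heavy chain of several amino acid carriers, fell by 1.29 ± 0.14, from 4620, 5126 and 4898 to 1833, 2142 and 1975. Its partner Slc7a6 fell by 1.16, its second probe set fell by 1.37, while the partner Slc7a7 had a difference of -0.66 (adjusted p 0.00552). Slc16a3 fell by 1.24, Slc52a3 fell by 1.14 and Slc9a9 fell by 1.13. None of the 23 mitochondrial carriers and none of the 6 nucleotide sugar carriers was called at 72 h.

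The rule favoured a difference for Slc37a2 and Slc52a3, which reached 500 only at 18 h. It also favoured the rises of Slc22a17, Slc10a6, Slc12a5, Slc12a2 and Slc2a8. These reached 500 at 72 h but not in the bone marrow, at 4 h or at 18 h. Leaving out 1 sample ended the calls of Slc16a3 (-0.85 without 18 h sample 1, -1.17 with adjusted p 0.063 without 72 h sample 3), Slc52a3 (-0.84 without 72 h sample 1, -0.96 without 18 h sample 1) and Slc7a6 (-0.99 without 72 h sample 2, the sample with the most Ms4a1 and Cpa3). Without the 3 samples that stood apart 6 members were higher and 10 lower.

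Both macrophage populations of 168 h were then compared. Against the Ly-6B- macrophages, no member was higher and 3 were lower (2.61%) in the Ly-6B+ macrophages, against 1.54% and 2.41% of all genes tested and 2.04% and 2.37% of genes at the same level. The arrays did not overlap for 35 members, 30.4%, against 25.1% of all genes tested and 27.8% of genes at the same level. Without a minimum fold, limma gave an adjusted p under 0.05 for 7 members higher and 10 lower, 14.8% of members against 8.16% of all genes. It gave an unadjusted p under 0.05 for 17 higher and 17 lower, 29.6% of members against 20.7% of all genes. Neither share was taken over genes at the same level, so these shares are not read as a trait of the members. The median difference was 0.02 over members and -0.02 over all genes.

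The 3 members lower in Ly-6B+ macrophages were a carrier of sulphated steroids, a lipocalin 2 receptor and a sulphate carrier. Slc10a6 had signals of 102, 103 and 119 in Ly-6B+ and 935, 651 and 631 in Ly-6B- macrophages, a difference of -2.59 ± 0.32 (adjusted p 1.23e-05). The signals in Ly-6B+ cells were also below all 3 of 72 h. Slc22a17 had 432, 421 and 358 against 1669, 1755 and 1825, a difference of -2.08 ± 0.25 (adjusted p 1.05e-05). Both Slc10a6 and Slc22a17 reached the level of 500 in Ly-6B- and not in Ly-6B+ macrophages, so the rule favoured their differences. Slc26a2 had 1227, 1323 and 862 against 2021, 2437 and 2639, a difference of -1.06 ± 0.20. The call of Slc26a2 ended without Ly-6B+ sample 3 (-0.88) or Ly-6B- sample 3 (-0.98) and with the mean of its probe sets (-0.78), its second probe set giving -0.56 (adjusted p 0.106). Slc12a2 had 454, 497 and 375 against 905, 713 and 861, a difference of -0.88 ± 0.18 (adjusted p 0.00233), and Slc2a8 one of -0.99 ± 0.26 (adjusted p 0.0192). Slc12a5 and Slc38a6, which rose with Slc22a17 at 72 h, had differences of -0.11 ± 0.22 and 0.06 ± 0.14 here.

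Some members pointed the other way, with an adjusted p under 0.05 and less than the fold. Slc29a1 had 787, 877 and 733 in Ly-6B+ and 556, 492 and 393 in Ly-6B- macrophages, a difference of 0.73 ± 0.16 (adjusted p 0.00589). Slc7a6 had 0.80 (adjusted p 0.022), Slc16a10, a carrier of aromatic amino acids, 0.74, Slc36a1 0.70 and Slc1a5, a glutamine exchanger, 0.63. Slc20a1, a phosphate carrier, had 6565, 6753 and 5817 against 4426, 3826 and 3351, a difference of 0.73 ± 0.25 whose adjusted p was 0.0877. The summed monocyte genes were 36020 to 44290 in Ly-6B+ and 2586 to 5678 in Ly-6B- macrophages, those of resident macrophages 170200 to 197500 and 254200 to 299600, and those of B cells 1783 to 3051 and 884 to 1307. Their part in these differences was not tested.

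Ly-6B- macrophages of 168 h were compared with resident macrophages of untreated mice. Limma called no member, against 0.0411% of all genes tested higher and 0.0% lower, and 0.0665% and 0.0% of genes at the same level. An unadjusted p under 0.05 was found for 5 members, 2 higher and 3 lower, 4.35% against 3.56% of all genes. The arrays did not overlap for 11 members, 9.57%, against 8.61% of all genes tested and 8.18% of genes at the same level. The differences ran from -0.61 (Slc22a15) to 0.66 (Slc20a1). Slc20a1 had 4426, 3826 and 3351 after zymosan and 1734, 2878 and 2833 in resident macrophages, with a standard error of 0.25. Slc22a15 had 320, 190 and 297 against 489, 320 and 438. Its highest Ly-6B- signal (319.5) lay just below its lowest resident one (319.7), so the groups do not overlap (adjusted p 0.9998). Slc22a17 had 1669, 1755 and 1825 against 2016, 2192 and 1977, a difference of -0.23 ± 0.25. The differences of Slc10a6 (0.32 ± 0.32), Slc12a5 (-0.16 ± 0.22) and Slc39a14 (0.30 ± 0.20) did not pass either. A p above the threshold does not show that both populations carry the same transporters.

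The reference populations, resident macrophages and bone marrow monocytes of untreated mice, were compared to set the distance that the other groups span. Of the members, 21 were higher in resident macrophages (18.3%) and 5 lower (4.35%), against 12.9% and 10.2% of all genes tested and 13.1% and 12.3% of genes at the same level. The arrays did not overlap for 73 members, 63.5%, against 56.1% of all genes tested and 65.9% of genes at the same level. The median difference was 0.08 over members and 0.05 over all genes tested. The lipocalin 2 receptor Slc22a17 and the steroid, chloride and choline carriers stood at the top, and the nucleobase carrier Slc43a3 and the glucose carrier Slc2a3 at the bottom.

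Slc22a17 had signals of 150, 136 and 101 in bone marrow monocytes and 2016, 2192 and 1977 in resident macrophages, a difference of 3.87 ± 0.25 (adjusted p 8.31e-11). Slc12a5 had 111, 105 and 112 against 1135, 1015 and 1533, a difference of 3.30 ± 0.22. Slc10a6 had 118, 95.4 and 32.4 against 767, 475 and 528, a difference of 2.74 ± 0.32. These are the members that rose most at 72 h, and the resident group shows their level in mice without zymosan. Slc44a1, a choline transporter-like protein, had 396, 510 and 376 against 2841, 2562 and 2437, a difference of 2.58 ± 0.18, while its second probe set gave 0.96 (adjusted p 0.0415) and the mean of its probe sets 0.83. Its relative Slc44a2 went the other way by -1.44 ± 0.12, from 12730, 12513 and 11435 to 4610, 4394 and 4479, and by -1.71 on its second probe set. Slc13a3 (2.47), Slc7a8 (2.32), Slc38a6 (2.30), Slc12a2 (2.15), Slc26a2 (2.15) and Slc12a7 (2.05) were also higher by over 2 on the log2 scale. Slc39a14 differed by 2.25 on the probe set used, but by -0.21 (adjusted p 0.63) on its second and by 0.39 with the mean.

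Slc43a3 had 996, 867 and 1370 in bone marrow monocytes and 97.9, 176 and 169 in resident macrophages, a difference of -2.76 ± 0.31. Slc2a3 had a difference of -2.44 ± 0.48 and of -3.53 on its second probe set, with the resident signals at 192, 223 and 167. Without the 3 samples that stood apart it was -1.74. Slc25a12, an aspartate and glutamate carrier of mitochondria, had 3456, 3429 and 3308 against 1187, 1094 and 1041, a difference of -1.61 ± 0.12 that was -0.83 with the mean of its probe sets. Slc46a3 had a difference of -1.10. Slc43a3, Slc2a3 and Slc46a3 reached 500 only in the bone marrow, so the rule favoured these differences. Among the higher members it favoured those of Slc22a17, Slc12a5, Slc10a6, Slc12a2 and Slc2a8. These reached 500 in resident macrophages but not in the bone marrow, at 4 h or at 18 h. Among the mitochondrial carriers, 3 of 23 were higher and 1 lower. Slc25a37, an iron importer known from red cell precursors, had 818, 718 and 618 against 1825, 1772 and 1389, a difference of 1.19 ± 0.20. The metal (18 members), ion (9) and carboxylate (10) classes had 3 members higher each and none lower. Of all genes tested, 12.9% were higher and 10.2% lower, and these small class counts are a description. Single samples decided the calls of Slc25a15 (0.96 and 0.99 without bone marrow samples 2 and 3, 0.99 without resident sample 3), Slc30a9 (0.94 without resident sample 1), Slc46a3 (-0.93 without resident sample 2) and Slc5a3 (1.00 without the same sample). Those of Slc25a30 and Slc5a3 also ended with the mean of the probe sets (0.35 and 0.97), that of Slc5a3 with quantile normalization (0.92), and those of Slc25a15 and Slc25a30 with a common median (0.99 and 1.00).

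**Figure D4:**
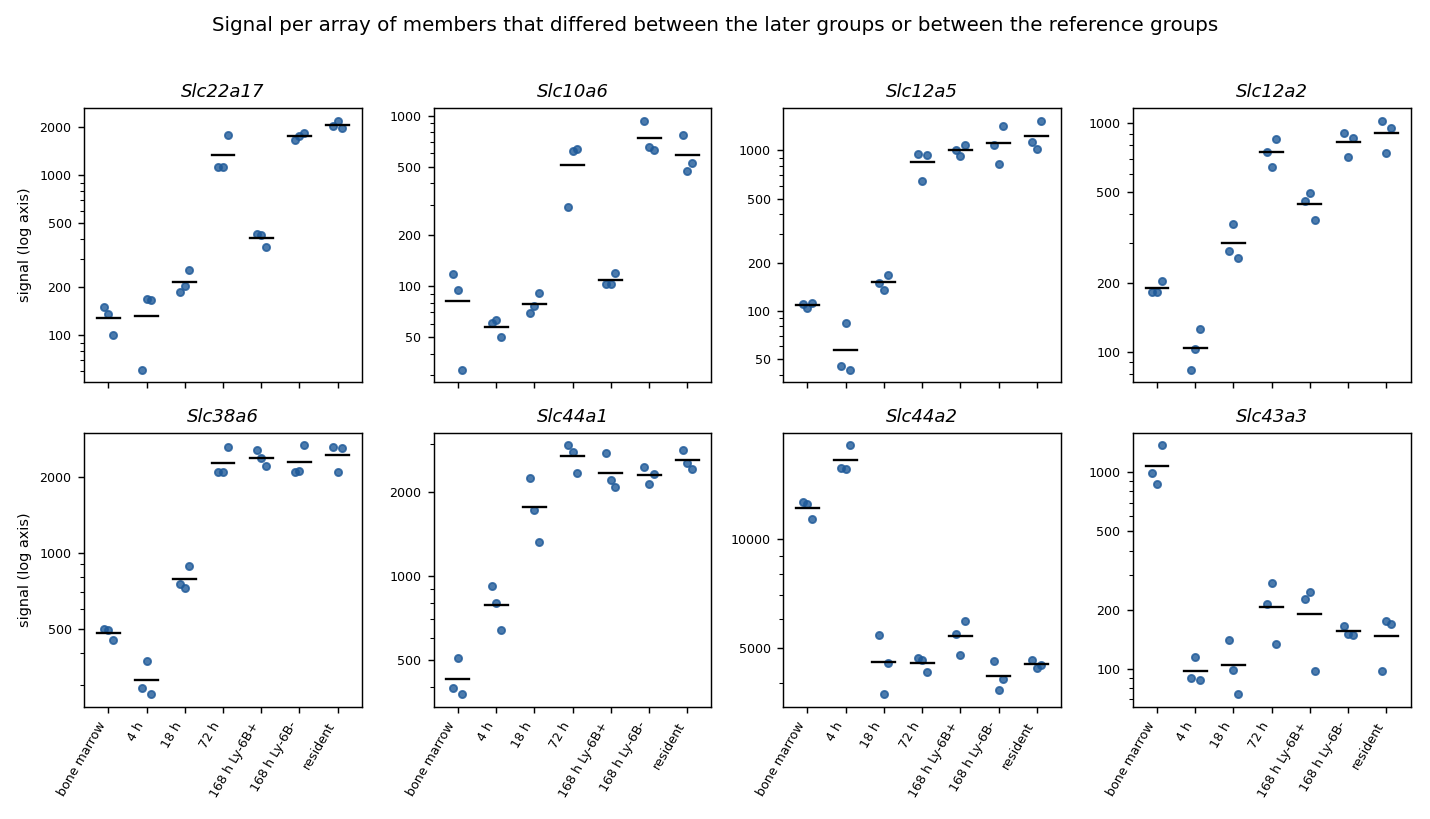
Signal per array (points, log axis) and mean of 3 arrays (line) in the 7 groups, for 8 members that differed at 72 h or later or between the untreated populations. Slc22a17 and Slc10a6 are high at 72 h, in the Ly-6B- cells of 168 h and in the untreated cavity, and lower in the Ly-6B+ cells, while Slc12a5 and Slc38a6 are high in all 4 groups.

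The carriers of general supply followed several courses. Slc38a2, a carrier of small neutral amino acids, had 6065, 6326 and 6092 in the bone marrow and 3357 to 3722 at 18 h. Slc1a5 was highest at 4 h, at 1722, 1877 and 1652, and had 689, 678 and 684 in resident macrophages. Slc2a6, a glucose carrier of the lysosome, had differences of 0.83 ± 0.19 in resident macrophages and 0.75 ± 0.19 at 4 h against the bone marrow, both short of the fold. Slc29a3, a lysosomal nucleoside carrier, had -0.84 ± 0.11 and -0.82 ± 0.11 in resident macrophages against bone marrow and at 72 h against 18 h. Slc25a5, an ADP and ATP carrier, had 21737, 21399 and 21974 in the bone marrow and 15204, 16133 and 14282 in resident macrophages. Slc35a1, which brings CMP-sialic acid into the Golgi, had its lowest signals at 4 h (483, 536 and 513) and its highest in resident macrophages (1330, 1224 and 1288). Slc33a1, which brings acetyl-CoA into the endoplasmic reticulum, had 1840, 1394 and 1513 at 4 h and 683 to 966 in resident macrophages. These carriers thus followed different courses, as did Slc35a1 and Slc33a1 within 1 class. Of all members, 56 were called in none of the 6 comparisons. The share of all genes called in none was not set beside this count, so it is no trait of the members.

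Within the mitochondrial family, some relatives ran opposite courses. Over the 7 group means, the lowest Pearson correlations within a family were between Slc25a28 and Slc25a39 (-0.97), Slc25a12 and Slc25a37 (-0.96), Slc25a15 and Slc25a28 (-0.96), and Slc25a28 and Slc25a46 (-0.94). These 4 were picked as the lowest of 376 pairs, and the groups share one set of arrays and one scaling, so they are a description. Slc25a28 had 3128, 3576 and 3779 at 4 h and 1072 to 1196 at 72 h. Slc25a39, a mitochondrial glutathione carrier, had 2423, 2822 and 3236 at 4 h and 5391, 5700 and 6564 at 72 h. So where Slc25a28 was highest, Slc25a39 was lowest.

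Probe sets that the rule did not use were read on the same RNA. Over the 6 comparisons there were 108 calls of members, and 52 of these had a second probe set of the same gene that was tested. The second probe set had the same sign in 50 of the 52 and was called the same way in 32, and in 0 was it called the other way. Those of opposite sign were Slc39a14 between the reference populations and Slc5a3 at 18 h, given above. They read other stretches of the transcripts in the same samples and are not further replicates.

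Partners of the carriers that fall outside the naming pattern were read from a list of 19 genes, 17 of which were tested. At 4 h against the bone marrow, 3 were higher and 3 lower, against 7.5% and 14.5% of all genes tested. Mt1 and Mt2, metallothioneins that bind zinc and copper, rose by 1.85 ± 0.24 and 3.20 ± 0.35, and Atp7a, a copper pump, by 1.2 ± 0.12. Atp1b1, a chain of the sodium pump, fell by 3.01, to the low signals of 41.4, 88.7 and 13.2, and by 1.78 with the mean of its probe sets. Slco4a1, an organic anion carrier, had signals of 429, 319 and 2763 in the bone marrow and 320, 197 and 197 at 4 h, so the groups overlap and bone marrow sample 3 stands far above the rest. Its difference of -1.59 (adjusted p 0.0470) was -0.64 without that sample (adjusted p 0.387), and the call also ended without any of the 4 h samples and under both other scalings. Tfrc, the transferrin receptor, fell by 1.00, from 1359, 1156 and 2400 to 960.0, 852 and 559, a difference that was -0.69 without bone marrow sample 3 and -0.77 without 4 h sample 3, and both other scalings and the mean of its probe sets ended its call. The metallothioneins and the zinc carriers Slc39a14 and Slc30a1 were so raised in the same samples. At 18 h against 4 h, Tfrc rose by 1.34 (0.99 without 18 h sample 2), and Mt2 and Emb had differences of -1.18 (-0.92 without 18 h sample 1) and -1.2. Slco4a1 had 63.5, 60.1 and 55.6 at 18 h, a difference of -1.73 whose adjusted p rose to 0.0578 or more without any of the 6 samples. At 72 h against 18 h, Bsg rose by 1.21 and Mt1 by 1.02 (0.80 without 72 h sample 3, 0.83 without 18 h sample 1 and 0.90 with a common median), and Emb and Flvcr1, a haem exporter, had differences of -1.57 and -1.3.

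Bsg and Emb are chaperones that take lactate carriers to the cell surface. Between the reference populations Bsg was higher in resident macrophages by 1.73 ± 0.19 and Emb lower, with a difference of -4.22 ± 0.22, with group means of 817.6 and 15619 for Emb. Mt1 and Mt2 were also higher there, by 3.18 and 2.39, and Atp1b1 and Slco4a1 lower, with differences of -2.16 and -5.17. In Ly-6B+ against Ly-6B- macrophages of 168 h, Bsg and Mcu, the calcium channel of mitochondria, had differences of -1.05 and -1.25. That of Bsg ran from -0.94 to -0.90 without Ly-6B- sample 2 or 3 or Ly-6B+ sample 1, and that of Mcu was -0.63 with the mean of its probe sets, so each call then ended. No partner was called between Ly-6B- and resident macrophages, against 0.0411% of all genes tested higher and 0.0% lower.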

How the data were processed

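Per the labels' protocols, TriZol extracts of the sorted cells (100 ng of RNA) went through 2 cycles of amplification and labelling. The authors deposited linear signal intensity computed by MAS5 in Affymetrix Expression Console 1.2, per the submitters' processing notes. The 2% trimmed mean over 45101 probe sets was 500.0 in each of the 21 arrays, tested on the values. A column was matched to each sample. The number of arrays limits the precision. Probe sets with 1 symbol in GEO's platform annotation numbered 34958, and those with several (932) or not listed (9211) were left out. The members matched RefSeq by gene identifier, 115 of 115. For each gene the probe set of highest mean was used, and genes with a signal above 80.6, the table's median, in at least 3 arrays were tested.

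Signals were taken as log2(signal + 15), where 15 is the 20th percentile rounded, and fitted in R 4.3.3 with limma 3.58.1 (lmFit, eBayes with a trend, 7 group means, 14 residual degrees of freedom). Tests were 2-sided, with Benjamini-Hochberg adjustment over all 12169 genes tested. The script was tested on simulated data. The tests given here were not paired and did not use the replicate number. Residuals of samples of the same number correlated over 0.1 for each of the 3 numbers only between both groups of 168 h (0.30, 0.28 and 0.18). A pairing there would come from the data and not from the labels, and the replicate number was used as a block only in an alternative fit. The members, classes, lists and rules were chosen with earlier results of these data known.

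The members named were the 4 called with the largest change in each direction and no overlap in each comparison, the 3 with the widest range in each class, a list of reference members, the 4 most opposed pairs, those next to the level of 500, and, outside this rule, other called members, those decided by single samples or probe sets, those that did not pass the F test, and Slc15a4, Slc22a15 and Slc25a3, chosen after their values were seen. Alternatives were pseudocounts of 1 and 60, a filter at the table's 75th percentile or none, array medians made equal, quantile normalization, all probe sets of a gene averaged, eBayes without the trend, the replicate block, no minimum fold, only the 6 arrays compared, each replicate left out, and, chosen after seeing the data, 3 samples left out and the partners' calls recomputed under the same leave-outs, scalings and probe set mean. Detection calls and raw image files were not used here.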

Additional observations from a re-analysis of the deposited data

How the results depend on the processing

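With no minimum fold, members higher and lower numbered 43 and 24 in resident macrophages against bone marrow, 42 and 39 at 4 h, 47 and 26 at 18 h, 15 and 25 at 72 h, and 7 and 10 in Ly-6B+ against Ly-6B- macrophages. In the last of these, 14.8% of members and 8.16% of all genes tested passed, and the share over genes at the same level was not taken. Shares of all genes were not set beside the other member counts of this paragraph, so these counts describe the settings and no trait of the members. With a common array median, 34 members were higher at 4 h, and 12 were higher and 17 lower at 18 h. At 18 h, 13 were higher with quantile normalization and 14 with the mean of probe sets. The balance at 18 h thus turned from 23 higher and 10 lower to 12 and 17 with a common median, and to 13 and 13 with quantile normalization. All other counts of members called stayed within 1.5 times, and no named difference changed sign in the settings run. Leaving out each replicate in turn gave 20 to 23 higher and 5 to 6 lower in resident macrophages against bone marrow, 20 to 23 and 8 to 10 at 4 h, 19 to 24 and 9 to 11 at 18 h, 6 to 7 and 7 to 11 at 72 h, and 0 and 2 to 4 in Ly-6B+ against Ly-6B- macrophages. Of 35 named differences, 30 kept their call in all settings run and 5 lost it in at least 1 (Slc44a1, Slc25a12, Slc5a3, Slc15a2 and Slc26a2). The F test was passed by 101 to 110 members. The cause of these shifts was not tested. The number of arrays limits what can be seen, and dim members such as Slc10a6 have signals near the table's median in 4 groups.

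With the replicate number as a block, 35 of 35 named differences kept their call, 0 members were higher and 3 lower in Ly-6B+ against Ly-6B- macrophages, and 110 members passed the F test.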
